A study of Homo sapiens with 6 samples.

Results

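Integrins, laminins, collagens, matrix metalloproteinases (MMPs) and their tissue inhibitors (TIMPs) make up 92 of the 16229 gene symbols counted here. They were chosen by name alone: ITGA, ITGB, LAMA, LAMB, LAMC, MMP or TIMP followed by a number and at most 1 letter, or COL, a number, A and a number. The 92 members comprised 20 integrin chains, 11 laminin chains, 39 collagen chains, 18 MMPs and 4 TIMPs.

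Laminins and collagens are matrix proteins that epithelial cells and their neighbours lay down beneath and around themselves, laminins as trimers of an alpha, a beta and a gamma chain and collagens as trimers of their own chains. Integrins are surface receptors, each a pair of 1 alpha and 1 beta chain, which bind this matrix and link it to keratin or actin inside the cell. MMPs are zinc proteases that cut matrix and surface proteins, and TIMPs bind and block them. In the gut, the basement membrane under the epithelium is rich in laminin and type IV collagen, and its contact with integrins is known to govern anchorage and migration of the cells.

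RNA was sequenced from a wild-type colorectal cancer line labelled MC38, in 3 libraries from cells given GCA for 24 hours and 3 libraries from cells without it (CON). GCA is read as glycocholic acid, a conjugated bile acid named in the series' title; the sources used here state no dose. MC38 is known as a mouse line, yet organism label, build (hg38) and gene symbols are all human. The protocol text mentions heart samples, and polyA RNA is listed beside a kit that depletes ribosomal RNA. The treatment label alone puts the samples titled fa in the GCA group. Separate cultures are not stated for the replicates, and p-values here reflect the spread between libraries, which may be technical. Total counts per library ran from 18057453 to 20531612. Of the 11 colon epithelial markers checked, EPCAM, CDH1, CDX2 and the keratins KRT8, KRT18 and KRT19 averaged above 5 FPKM in both groups, while CEACAM5, LGR5 and CDX1 were too low to test. CDH1, KRT8, KRT18 and KRT20 passed the test as higher in GCA, and the 11 markers summed to 11132 to 12703 CPM in GCA libraries, against 7918 to 10110 CPM in CON libraries. Summed fibroblast markers lay at 8.04 to 9.97 CPM in GCA libraries, against 9.41 to 12.0 CPM in CON libraries, and endothelial markers at 12.6 to 13.5 CPM in GCA libraries, against 11.6 to 12.7 CPM in CON libraries. Leukocyte markers summed to 32.6 to 42.9 CPM in GCA libraries, against 28.5 to 32.9 CPM in CON libraries. Cardiomyocyte markers summed to 37.2 to 42.4 CPM in GCA libraries, against 23.5 to 26.8 CPM in CON libraries, nearly all of it from TNNI3. For each of these cell types 2 markers could be tested. Among them 1 endothelial, 1 leukocyte and 1 cardiomyocyte marker passed as higher in GCA, and no fibroblast marker passed. The endothelial and leukocyte calls were kept with the GC and length correction described below, and the cardiomyocyte call was not. With that correction the other tested endothelial marker passed as lower. Of the 4 colon epithelial calls 3 were kept with it, and 1 colon epithelial marker passed as lower. Some markers of the lists (DCN and LUM, PECAM1 and CDH5, PTPRC and CD3E, MYH6 and MYH7) stayed under 0.05 FPKM in both group means, while others were detected. In bulk RNA of this kind, fewer cells of a type and less RNA per cell cannot be told apart.

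Of the 92 members, 57 had enough counts to be tested. GCA libraries had higher levels of 20 of these and lower levels of 3, and 34 did not pass (edgeR quasi-likelihood test, Benjamini-Hochberg adjusted p under 0.05 over 12604 genes). Over all tested genes 36.4% passed, 18.3% as higher and 18.1% as lower in GCA, so the share of members that passed (40.4%) was near the background. The members that rose were ITGA3, ITGA7, ITGA10 and ITGB4, LAMA3 and LAMB2, COL1A1, COL6A1, COL6A2, COL9A2, COL9A3, COL16A1 and COL18A1, MMP9, MMP11, MMP15, MMP17 and MMP28, and TIMP1 and TIMP2. ITGA6, LAMC1 and COL12A1 fell. The groups did not overlap in 32 of the 57, a share to be read against 48.5% of all tested genes. The median log2 fold change of the 57 was 0.33, beside -0.04 for all tested genes.

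Fold changes in these libraries went along with the base composition of the transcripts, and the members are GC-rich. Their median GC content was 58.7%, beside 49.9% for all tested genes, and the correlation of log2 fold change with GC content was 0.48 over the 57 members and 0.48 over 12563 genes (a description across genes that share the same 6 libraries). The 20 members that rose had a median GC content of 62.6%, and the 3 that fell one of 46.3%. A second fit therefore removed each library's smooth trend with GC content and gene length. In it 8 members stood higher in GCA and 4 lower, where 29.2% of all tested genes passed, 12.1% higher and 17.1% lower. Of the 23 original calls 8 were kept in the same direction: LAMA3, LAMB2, COL6A1, COL9A3, MMP11, MMP28 and TIMP2 as higher and LAMC1 as lower. The members' median became 0.09, beside -0.06 for all tested genes. Whether the trend comes from the libraries or from the cells was not tested.

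**Figure D1:**
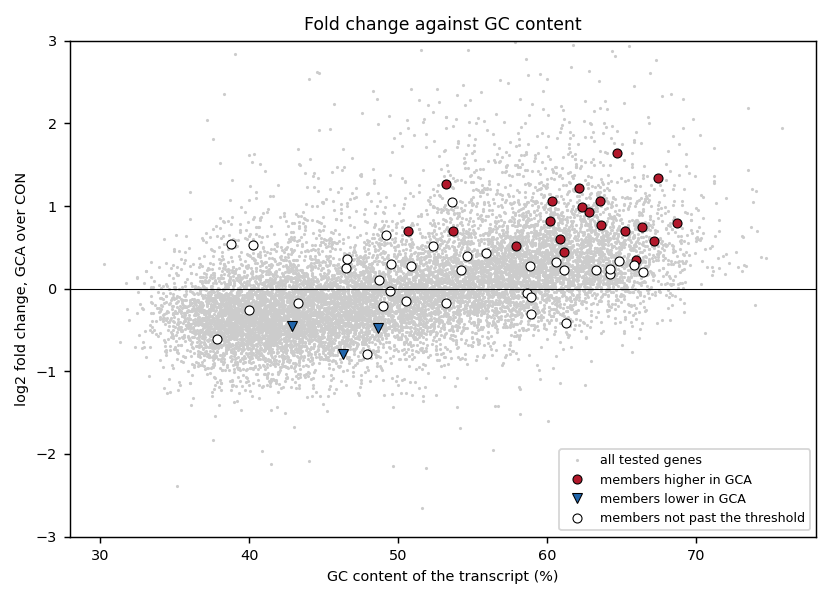
Log2 fold change (GCA over CON) against transcript GC content in percent. Grey points are all tested genes, red circles the 20 members higher in GCA, blue triangles the 3 lower ones and white circles the 34 that did not pass. The red circles sit mostly at high GC content and the blue triangles at low GC content; 43 genes lie beyond the axis limits of 3 and -3.

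**Figure D2:**
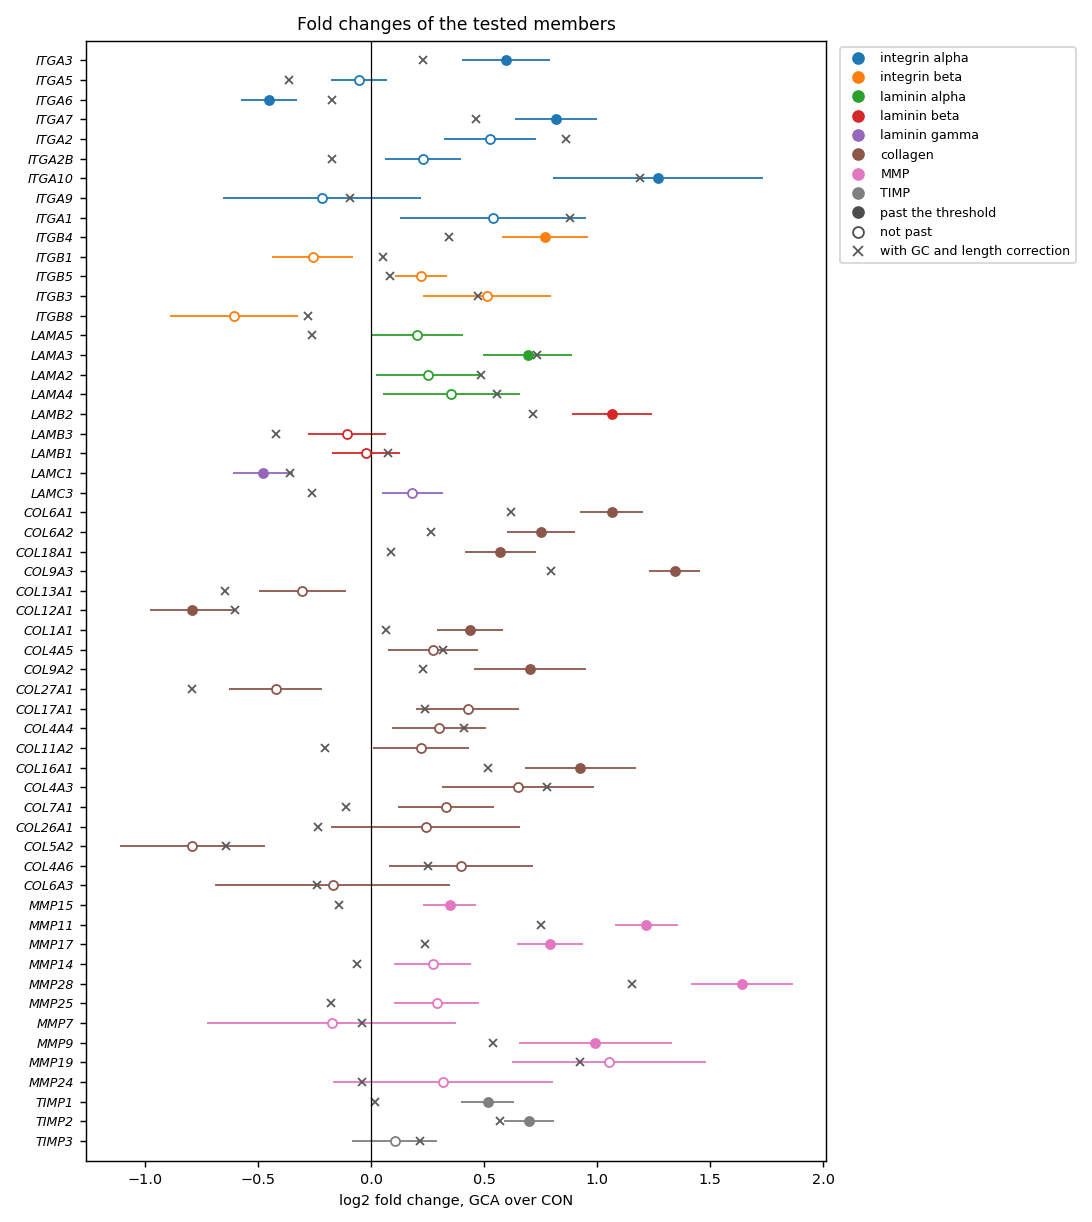
Log2 fold change of 56 of the 57 tested members with its standard error (bars), grouped by family, for 3 GCA and 3 CON libraries. Filled circles passed the test, open ones did not, and crosses give the value with the GC and length correction. Most crosses of the MMPs and of the more abundant collagens lie left of their circles.

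For 4 of the 8 members kept under the correction RefSeq's table for GRCh38.p14 holds a promoter, from 250 bases before to 50 bases after a start site, shown here because these are members whose call was kept with that correction. Capitals mark the AP-1 motif TGANTCA and the GC box GGGCGG on either strand. LAMA3 (chr18:23872770-23873069, plus strand, at a start site inside the gene), LAMB2 (chr3:49133001-49133300, minus strand), LAMC1 (chr1:183023170-183023469, plus strand) and MMP11 (chr22:23772599-23772898, plus strand) follow.
LAMA3: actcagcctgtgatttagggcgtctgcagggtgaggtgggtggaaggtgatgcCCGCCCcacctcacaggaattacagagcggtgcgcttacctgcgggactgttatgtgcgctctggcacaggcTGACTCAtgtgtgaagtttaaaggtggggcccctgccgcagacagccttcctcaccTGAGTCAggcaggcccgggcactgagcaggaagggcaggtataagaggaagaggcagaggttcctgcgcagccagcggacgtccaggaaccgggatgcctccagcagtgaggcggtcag
LAMB2: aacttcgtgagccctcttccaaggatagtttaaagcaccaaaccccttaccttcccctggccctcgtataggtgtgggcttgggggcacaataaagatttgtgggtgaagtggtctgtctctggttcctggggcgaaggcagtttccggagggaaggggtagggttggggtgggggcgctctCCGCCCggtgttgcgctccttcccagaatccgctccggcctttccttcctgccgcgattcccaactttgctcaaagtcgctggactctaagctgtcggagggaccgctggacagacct
LAMC1: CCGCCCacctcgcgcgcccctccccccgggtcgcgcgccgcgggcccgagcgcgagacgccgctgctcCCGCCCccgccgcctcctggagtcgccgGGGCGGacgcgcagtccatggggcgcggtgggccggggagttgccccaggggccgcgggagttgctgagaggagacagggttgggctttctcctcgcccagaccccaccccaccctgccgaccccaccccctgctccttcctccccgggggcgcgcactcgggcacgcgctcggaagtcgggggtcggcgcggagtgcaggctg
MMP11: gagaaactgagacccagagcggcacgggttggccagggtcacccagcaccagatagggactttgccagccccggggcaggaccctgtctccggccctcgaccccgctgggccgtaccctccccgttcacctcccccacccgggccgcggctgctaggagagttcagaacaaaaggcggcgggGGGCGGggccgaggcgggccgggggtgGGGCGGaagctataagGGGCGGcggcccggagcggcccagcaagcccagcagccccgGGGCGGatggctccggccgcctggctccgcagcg
COL6A1, COL9A3, MMP28 and TIMP2 are named only. The AP-1 letters occur 2 times in the LAMA3 window and in none of the other 3, and the GC box occurs once in LAMA3 and LAMB2, 3 times in LAMC1 and 4 times in MMP11. Over the 62 members with a promoter entry, 8.06% held the AP-1 letters and 61.3% a GC box, beside 7.76% and 44.6% of 27305 promoters of the same length. Those 27305 promoters are not limited to the 16229 genes counted here, so the 2 sets are unlike and the gap is not read as a trait of the members. LAMC1, which fell, and MMP11, which rose, both carry several GC boxes. These matches describe letters in a window and not binding.

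Among the laminin receptors, the pair that anchors epithelial cells to laminin through hemidesmosomes moved apart: ITGB4 rose while ITGA6 fell. ITGB4 (chromosome 17, 75721459 to 75757818, GRCh38) stood at 147, 102 and 116 FPKM in GCA libraries, against 49.4, 85.3 and 89.6 FPKM in CON libraries. FPKM is the deposited level per length and library size. All 3 GCA libraries lay above all CON libraries, of which CON 1 was lowest, and the log2 fold change was 0.77 ± 0.19 (SE; edgeR adjusted p = 0.00789, n = 3 per group). ITGA6 (chromosome 2, 172427336 to 172506459), the only partner known for ITGB4, had 7.92, 8.32 and 6.48 FPKM in GCA libraries, against 9.28, 11.6 and 11.2 FPKM in CON libraries. Its groups did not overlap either, with GCA below CON (log2 -0.45 ± 0.12, adjusted p = 0.0136). The level of ITGB4 was therefore 16.3 ± 3.47 times that of ITGA6 in GCA libraries and 6.88 ± 1.38 times in CON libraries (SD, n = 3 each). With the GC and length correction neither passed (log2 0.34, adjusted p = 0.178, and log2 -0.17, adjusted p = 0.224). The ITGA6 call was also lost without GCA 3 (adjusted p = 0.0837) and without CON 2 (0.0632).

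ITGA3, the alpha chain of the other main epithelial laminin receptor, was the most abundant integrin gene. It stood at 233, 201 and 226 FPKM in GCA libraries, against 93.8, 167 and 196 FPKM in CON libraries. The lowest GCA library exceeded the highest CON library by little, and CON 1 lay far below the other two. ITGA3 (chromosome 17, 50056110 to 50090481) rose by 0.60 ± 0.19 (log2, adjusted p = 0.0295), but the call was lost when any single GCA library was left out (adjusted p from 0.0600 to 0.113), with library size alone (0.0704) and with the correction (log2 0.23, adjusted p = 0.392). Its beta chain ITGB1, shared by most integrins of epithelial cells, had 41.4, 51.4 and 45.6 FPKM in GCA libraries, against 36.4, 68.1 and 68.4 FPKM in CON libraries. The groups overlapped through CON 1 and ITGB1 did not pass (log2 -0.26 ± 0.18, adjusted p = 0.272), whereas without CON 1 it stood at -0.47 and passed as lower (adjusted p = 0.00167).

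ITGA7, another laminin-binding alpha chain best known from muscle, had 3.15, 3.70 and 4.67 FPKM in GCA libraries, against 1.72, 2.51 and 2.56 FPKM in CON libraries. It rose by 0.82 ± 0.18 (adjusted p = 0.00437), with the groups apart, and the correction left 0.46 (adjusted p = 0.0571), which passed once the replicate block was added (adjusted p = 0.0151).

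The collagen-binding alpha chains were less abundant. ITGA2, which pairs with ITGB1 on epithelial cells, had 3.40, 3.81 and 2.87 FPKM in GCA libraries, against 1.43, 2.94 and 2.95 FPKM in CON libraries. It missed the threshold (log2 0.53 ± 0.20, adjusted p = 0.0607), passed with the replicate number as a block (adjusted p = 0.0328), and passed with the correction at a log2 value of 0.86 (adjusted p = 0.00296), as it did in 8 of 18 alternatives in all. ITGA10, a collagen receptor chain of cartilage, rested on 109 reads over the 6 libraries. It stood at 0.253, 0.121 and 0.352 FPKM in GCA libraries, against 0.0484, 0.123 and 0.141 FPKM in CON libraries. The groups overlapped, and its call (log2 1.27 ± 0.46, adjusted p = 0.0475) was lost in 11 of 18 alternatives. ITGA1, the remaining tested member of this kind, had a log2 value of 0.54 ± 0.41 (adjusted p = 0.323).

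Fibronectin and vitronectin receptors did not pass the test. ITGA5, the fibronectin receptor's alpha chain, averaged 27.0 ± 3.01 FPKM in GCA libraries and 29.02 ± 3.34 FPKM in CON libraries (SD, n = 3 each; log2 -0.05, adjusted p = 0.753). With the correction ITGA5 passed as lower (log2 -0.37, adjusted p = 0.0185). ITGB5, a vitronectin receptor chain, averaged 26.2 ± 2.06 FPKM in GCA libraries and 23.2 ± 2.02 FPKM in CON libraries (log2 0.22 ± 0.12, adjusted p = 0.147). The other tested chains were ITGB3, ITGB8, ITGA9 and ITGA2B, none above 3 FPKM in a group mean, with log2 values from -0.61 to 0.51 and adjusted p-values from 0.108 to 0.725. ITGAV, the alpha chain that pairs with ITGB3, ITGB5, ITGB6 and ITGB8, has a letter in place of a number and so is no member. Its log2 value was -0.19 ± 0.21 (adjusted p = 0.496), and none of the 3 letter-named integrins that could be tested passed. The leukocyte chains ITGB2, ITGB7 and ITGA4 stayed below the filter, with 18, 41 and 5 reads over the 6 libraries.

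Laminin chains did not change together. LAMB2 rose, LAMC1 fell and LAMA3 rose from a low level, while the other 7 tested chains did not pass. These 3 of 10 tested chains are a smaller share than the 36.4% of all tested genes that passed. All tested genes were also split between higher (18.3%) and lower (18.1%), so this mix is not read as a trait of the laminins. LAMB2 (chromosome 3, 49121114 to 49133050) stood at 22.5, 21.1 and 27.7 FPKM in GCA libraries, against 7.76, 13.9 and 13.9 FPKM in CON libraries. Every GCA library was above every CON library, and LAMB2 rose by 1.06 ± 0.18 (log2, adjusted p = 0.000698; log2 0.72 with the correction, adjusted p = 0.0101). LAMB1, which takes the place of LAMB2 in the corresponding laminin trimers, averaged 4.48 ± 0.295 FPKM in GCA libraries and 4.74 ± 1.18 FPKM in CON libraries (log2 -0.02 ± 0.15, adjusted p = 0.913). The ratio of LAMB2 to LAMB1 was 4.98, 4.43 and 6.64 in GCA libraries, against 2.30, 2.53 and 2.59 in CON libraries.

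LAMC1 (chromosome 1, 183023420 to 183145592), the gamma chain of most basement membrane laminins, had 7.23, 6.60 and 5.27 FPKM in GCA libraries, against 7.99, 10.1 and 9.51 FPKM in CON libraries. The groups did not overlap, although GCA 1 and CON 1 lay close, and LAMC1 fell by 0.48 on the log2 scale (SE 0.13, adjusted p = 0.0135; -0.36 with the correction, adjusted p = 0.0324). The call was lost without GCA 3 (adjusted p = 0.0829) and without CON 2 (0.0607). LAMA5, the main epithelial alpha chain and holding 96.2% of the summed alpha chain FPKM in GCA libraries and 96.8% in CON libraries, averaged 25.2 ± 5.56 FPKM in GCA libraries and 22.9 ± 7.50 FPKM in CON libraries (log2 0.20 ± 0.20, adjusted p = 0.457).

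LAMA3 and LAMB3 are chains of the hemidesmosomal laminin. LAMA3 (chromosome 18, 23689453 to 23955066) had 0.576, 0.534 and 0.449 FPKM in GCA libraries, against 0.3004, 0.347 and 0.3502 FPKM in CON libraries. Its groups were apart and it rose by 0.69 ± 0.20 (adjusted p = 0.0162; 0.73 with the correction, adjusted p = 0.00977), a call lost without GCA 2 (adjusted p = 0.0578) and on both log2 FPKM scales (0.0538 and 0.0710). Counts per gene do not separate the long and short LAMA3 transcripts. LAMB3 averaged 13.1 ± 1.83 FPKM in GCA libraries and 14.7 ± 4.32 FPKM in CON libraries (log2 -0.11, adjusted p = 0.657). CON 1 was the lowest of the 6 libraries, and LAMB3 passed as lower without replicate 1 of both groups (log2 -0.35, adjusted p = 0.00934). LAMC3 (log2 0.18), LAMA2 (0.25) and LAMA4 (0.35) did not pass either, with adjusted p-values from 0.301 to 0.415.

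**Figure D3:**
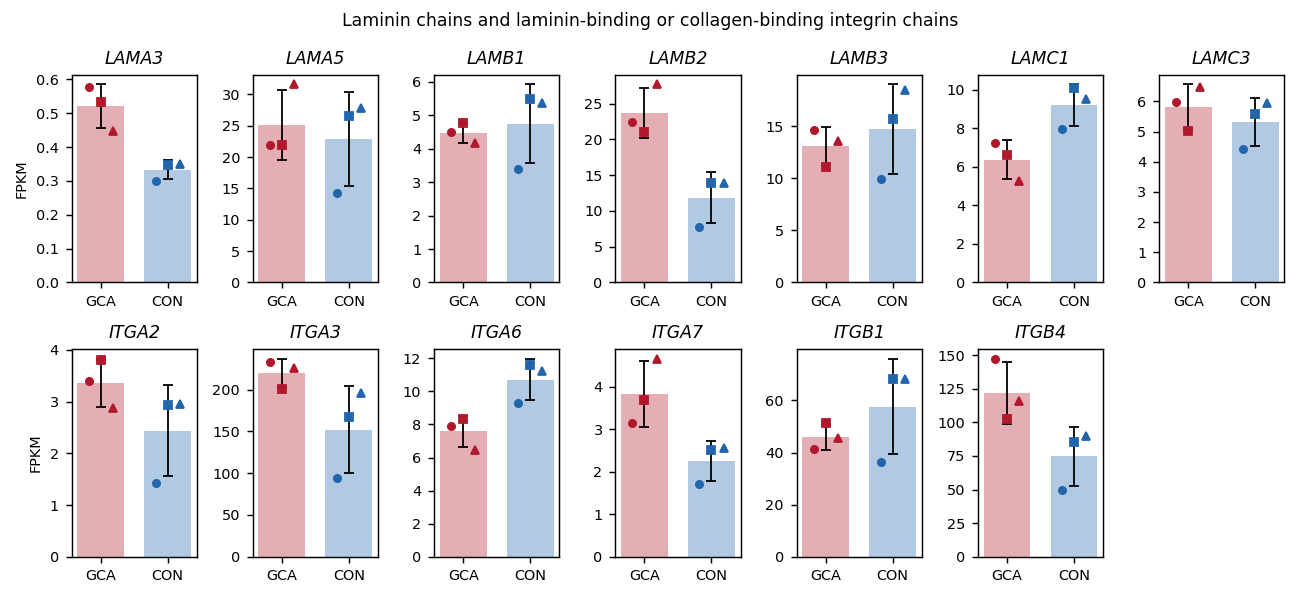
FPKM of 7 laminin and 6 integrin chains in 3 GCA (red) and 3 CON (blue) libraries. Bars are means, error bars the SD, and circles, squares and triangles replicates 1, 2 and 3. LAMA3, LAMB2, ITGA3, ITGA7 and ITGB4 are separated upward in GCA and LAMC1 and ITGA6 downward. The CON 1 circle is the lowest point in every chain shown except LAMC1 and ITGA6.

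Collagen RNA in these cells came mostly from 4 genes, and all 4 rose. COL6A1, COL6A2, COL18A1 and COL9A3 held 92.7 ± 0.368% of the summed collagen FPKM in GCA libraries and 87.2 ± 1.501% in CON libraries (SD, n = 3 each). The sum over the 39 collagen genes was 237, 204 and 241 FPKM in GCA libraries, against 105, 152 and 149 FPKM in CON libraries. Over the family, 7 of 20 tested genes rose, 1 fell and 12 did not pass, with a median log2 fold change of 0.36. The share that passed was 40.0%, near the 36.4% of all tested genes. With the correction 2 stood higher and 2 lower (median 0.16), where 12.1% of all tested genes were higher and 17.1% lower.

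COL6A1 and COL6A2 encode chains of type VI collagen, a beaded microfibril next to basement membranes, and lie 93063 bases apart on chromosome 21. COL6A1 (45981770 to 46005048) had 78.3, 69.3 and 82.0 FPKM in GCA libraries, against 29.4, 42.8 and 42.0 FPKM in CON libraries, and rose by 1.06 ± 0.14 (adjusted p = 0.000147; 0.62 with the correction, adjusted p = 0.00465). COL6A2 (46098112 to 46132848) had 63.8, 51.8 and 64.6 FPKM in GCA libraries, against 27.5, 41.2 and 42.8 FPKM in CON libraries. It rose by 0.75 ± 0.15 (adjusted p = 0.00242), and the correction left 0.26 (adjusted p = 0.169). In both genes every GCA library lay above every CON library. COL6A3, the third chain of the classical trimer, was near absent, with group means of 0.0557 FPKM in GCA and 0.0655 FPKM in CON (adjusted p = 0.819).

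COL18A1, whose product is a basement membrane collagen and the source of endostatin, lies 468049 bases from COL6A1. It had 48.2, 37.9 and 43.8 FPKM in GCA libraries, against 21.7, 35.5 and 33.8 FPKM in CON libraries. It rose by 0.57 ± 0.16 (adjusted p = 0.0127), narrowly so between GCA 2 and CON 2, and the correction left 0.09 (adjusted p = 0.673). The call was lost without GCA 1 (adjusted p = 0.05005) and without GCA 3 (0.0585).

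COL9A3 (chromosome 20, 62816213 to 62841159), a chain of the cartilage type IX collagen, gave the lowest p of all members. It had 30.4, 29.2 and 33.0 FPKM in GCA libraries, against 11.4, 13.3 and 13.0 FPKM in CON libraries. The groups were far apart relative to their spread, and COL9A3 rose by 1.34 ± 0.11 (adjusted p = 6.06e-06; 0.80 with the correction, adjusted p = 0.000488). Its partner chain COL9A2 had 1.93, 1.62 and 1.86 FPKM in GCA libraries, against 1.52, 0.996 and 0.867 FPKM in CON libraries, and rose by 0.70 ± 0.25 (adjusted p = 0.0403). The COL9A2 call was lost without any library other than CON 1 (adjusted p from 0.0743 to 0.139) and with the correction (log2 0.23, adjusted p = 0.498).

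COL12A1 (chromosome 6, 75084326 to 75206053), a fibril-associated collagen of dense connective tissue, fell. It had 2.78, 2.001 and 1.51 FPKM in GCA libraries, against 3.93, 3.77 and 3.49 FPKM in CON libraries. All GCA libraries were below all CON libraries (log2 -0.79 ± 0.19, adjusted p = 0.00613), and with the correction it missed the threshold at -0.60 (adjusted p = 0.0547), but passed at -0.61 with the replicate block added (adjusted p = 0.00232). COL16A1, also fibril-associated, rose by 0.93 ± 0.24 (adjusted p = 0.0110), averaging 0.579 ± 0.0964 FPKM in GCA libraries and 0.314 ± 0.0210 FPKM in CON libraries. Its call was lost without GCA 3 (adjusted p = 0.0608) and with the correction (log2 0.52, adjusted p = 0.0975). COL1A1, the main chain of type I collagen, rose by 0.44 ± 0.15 (adjusted p = 0.0340) to 2.50 ± 0.198 FPKM in GCA libraries, against 1.91 ± 0.1497 FPKM in CON libraries. COL1A2, the other chain of type I collagen, had 0, 3 and 0 reads in GCA libraries, against 0 reads in each CON library. The COL1A1 call was lost in 10 of 18 alternatives, among them the correction (log2 0.07, adjusted p = 0.696) and each library left out except CON 1 (adjusted p from 0.0508 to 0.144).

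The 6 chains of type IV collagen, the network of basement membranes, lie as 3 head-to-head pairs with 126 (COL4A1 and COL4A2), 135 (COL4A4 and COL4A3) and 379 bases (COL4A6 and COL4A5) between them. None passed. COL4A3, COL4A4, COL4A5 and COL4A6 had log2 values from 0.27 to 0.65 and adjusted p-values from 0.148 to 0.342, each under 2 FPKM in both group means. COL4A1 and COL4A2, the ubiquitous pair, were below the filter. COL4A1 had 0, 6 and 6 reads in GCA libraries, against 10, 45 and 5 reads in CON libraries, and COL4A2 had 5, 7 and 3 reads in GCA libraries, against 16, 63 and 2 reads in CON libraries. CON 2 alone held most of the reads of both genes, so no fold is given. Both were called lower with no filter (adjusted p = 0.0274 and 0.0172) and without CON 3 (0.00688 and 0.000843), fits that keep CON 2. COL4A3 was called higher without CON 3 (log2 1.14, adjusted p = 0.0159) and with the block and correction together (log2 0.84, adjusted p = 0.0261).

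Of the other tested collagens, COL17A1, the transmembrane collagen of hemidesmosomes, had a log2 value of 0.43 ± 0.23 (adjusted p = 0.158), and COL7A1, which forms the anchoring fibrils below them, 0.33 ± 0.21 (adjusted p = 0.238). COL13A1 and COL27A1, named after their values were seen, did not pass (-0.30 and -0.42, adjusted p = 0.232 and 0.125) but passed as lower with the correction (-0.65 and -0.79, adjusted p = 0.0230 and 0.0121). COL27A1 was also called without GCA 3 (adjusted p = 0.0451) and with the block (0.0418). COL5A2 (-0.79, adjusted p = 0.0695), COL11A2, COL26A1 and COL6A3 did not pass. The fibrillar genes COL3A1, COL5A1, COL2A1 and COL11A1 had 5 to 22 reads in all 6 libraries together. COL14A1 had 0 reads in each GCA library, against 3, 4 and 3 reads in CON libraries, too few to test.

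**Figure D4:**
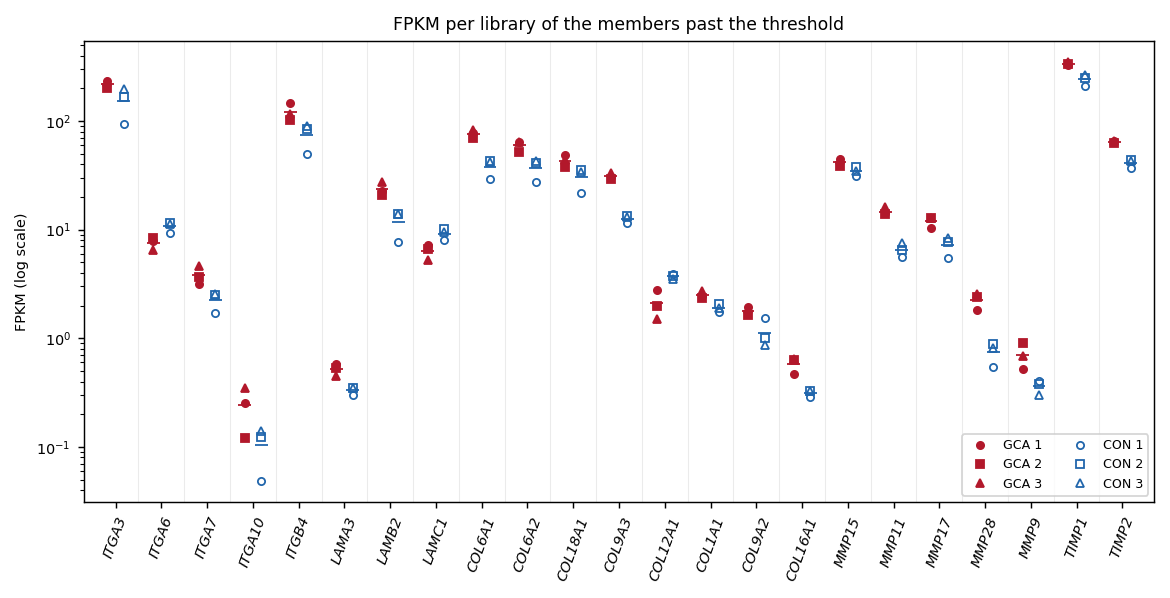
FPKM per library, on a log scale, of the 23 members that passed the test. Red filled symbols are GCA and blue open symbols CON libraries, with circles, squares and triangles for replicates 1, 2 and 3 and short lines for group means. ITGA10 is the one gene whose groups overlap, and ITGA6, LAMC1 and COL12A1 are the ones with GCA below CON.

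Of the matrix metalloproteinases, 5 of 10 tested genes rose, none fell and 5 did not pass (median log2 0.57), a share of 50% beside 36.4% of all tested genes. With the correction 2 stood higher and none lower (median 0.10), where 12.1% of all tested genes were higher and 17.1% lower. The largest change was that of MMP28, or epilysin, an MMP of epithelia (chromosome 17, 35756249 to 35795641). It had 1.81, 2.41 and 2.53 FPKM in GCA libraries, against 0.550, 0.889 and 0.809 FPKM in CON libraries. The groups were apart, with MMP28 up by 1.64 ± 0.23 (log2, adjusted p = 0.000222; 1.15 with the correction, adjusted p = 0.00343). MMP11 (chromosome 22, 23772849 to 23784316), a stromelysin that furin activates inside the cell, had 14.1, 13.9 and 16.0 FPKM in GCA libraries, against 5.58, 6.44 and 7.62 FPKM in CON libraries. Every GCA library lay above every CON library, and MMP11 rose by 1.22 ± 0.14 (adjusted p = 6.17e-05; 0.75 with the correction, adjusted p = 0.00266). FURIN itself, outside the families, averaged 57.0 FPKM in GCA libraries and 33.9 FPKM in CON libraries and rose by 0.80 ± 0.11 (adjusted p = 0.000276).

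Membrane-bound MMPs differed among themselves. MMP17, held by a lipid anchor, had 10.4, 12.8 and 12.8 FPKM in GCA libraries, against 5.53, 7.69 and 8.38 FPKM in CON libraries. It rose by 0.79 ± 0.15 (adjusted p = 0.00143), with the groups apart, and the correction left 0.24 (adjusted p = 0.228). MMP15, a transmembrane MMP and the most abundant gene of the family, averaged 42.4 ± 3.26 FPKM in GCA libraries and 34.5 ± 3.44 FPKM in CON libraries. It rose by 0.35 ± 0.12 (adjusted p = 0.0343), but the correction turned it to -0.14 (adjusted p = 0.284), and the call was lost without GCA 1, GCA 3, CON 2 or CON 3 (adjusted p from 0.0696 to 0.134). MMP14, the main activator of MMP2, averaged 7.19 ± 0.712 FPKM in GCA libraries and 6.22 ± 1.78 FPKM in CON libraries and did not pass (log2 0.27 ± 0.17, adjusted p = 0.229). MMP25 (0.29, adjusted p = 0.240) and MMP24 (0.32, adjusted p = 0.635) did not pass either.

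The gelatinase gene MMP9 rested on 145 reads over the 6 libraries. It had 0.521, 0.907 and 0.681 FPKM in GCA libraries, against 0.403, 0.379 and 0.302 FPKM in CON libraries, and rose by 0.99 ± 0.34 (adjusted p = 0.0362). The correction left 0.54 (adjusted p = 0.232), and the call was also lost without GCA 2, GCA 3, CON 2 or CON 3 (adjusted p from 0.0931 to 0.153). MMP7, or matrilysin, a known colon tumour MMP, ranged from 0.275 to 0.914 FPKM in GCA libraries and from 0.247 to 1.17 FPKM in CON libraries (log2 -0.17 ± 0.55, adjusted p = 0.825), so replicates of 1 group differed more than the groups did. MMP19 missed the threshold (log2 1.05 ± 0.43, adjusted p = 0.0704) and passed without CON 3 (log2 1.55, adjusted p = 0.0306). The collagenase genes MMP1 and MMP13, with 5 and 9 reads in all, and the other gelatinase gene, MMP2, with 23, were not testable at this depth.

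TIMP1 and TIMP2, the most abundant inhibitors, both rose. TIMP1 (chromosome X, 47582436 to 47586789), a secreted inhibitor of most soluble MMPs, had 325, 332 and 352 FPKM in GCA libraries, against 212, 250 and 268 FPKM in CON libraries, the highest level of all 92 members. It rose by 0.52 ± 0.12 (adjusted p = 0.00488), with the groups apart, and the correction left 0.02 (adjusted p = 0.941). TIMP2 (chromosome 17, 78852977 to 78925387), which also blocks membrane-bound MMPs and takes part in the activation of MMP2, had 65.1, 62.8 and 66.0 FPKM in GCA libraries, against 37.3, 43.6 and 42.7 FPKM in CON libraries. The spread within each group was small beside the gap, and TIMP2 rose by 0.70 ± 0.11 (adjusted p = 0.000576; 0.57 with the correction, adjusted p = 0.00138). TIMP3, which binds to matrix, averaged 1.27 ± 0.130 FPKM in GCA libraries and 1.22 ± 0.149 FPKM in CON libraries (log2 0.10 ± 0.19, adjusted p = 0.690). The sum of TIMP FPKM was 4.91 ± 0.172 times that of MMP FPKM in GCA libraries and 4.92 ± 0.205 times in CON libraries (SD, n = 3 each). Both sums were higher in GCA. TIMP1 held 83.6% of the TIMP sum in GCA libraries and 85.1% in CON libraries, and MMP15 51.7% and 59.5% of the MMP sum. FPKM carries no GC and length correction, and with that correction neither TIMP1 nor MMP15 passed.

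CON 1 lay low for many members. It was the lowest CON library for 41 of the 57 tested members and the lowest of all 6 libraries for 16 of the 20 that rose. For genes called higher in GCA the lowest library is mostly a CON one by selection. These counts were not made over all tested genes, so they are not read as a trait of the members. Without CON 1 the counts were 19 higher and 5 lower, and 22 of the 23 calls were kept in the same direction, all but that of ITGA10. Without GCA 3 the counts were 12 higher and 2 lower, and without CON 2 they were 16 higher and 1 lower. Exons of 5 of the 23 members (COL9A3, COL18A1, ITGA7, MMP11 and TIMP2) overlap those of another counted gene. The counted neighbours of COL9A3, COL18A1, ITGA7 and MMP11 lie on the opposite strand. The sources used here give no strand setting for the counting, so reads of these neighbours may not be told apart. CEP295NL, the counted neighbour of TIMP2, lies on the same strand, so a strand setting would not separate their shared reads.

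Genes around these families, on lists drawn up for their function, gave the following counts. Fold changes of single genes from these lists are those of the reported fit, and a corrected value is printed for only some of them. Of 27 tested integrin adaptors and focal adhesion genes 7 rose and 4 fell (median log2 0.03), a share of 40.7% beside the 36.4% of all tested genes. With the correction 3 stood higher and 6 lower (median -0.09), beside 29.2% of all tested genes, 12.1% higher and 17.1% lower. The balance over all tested genes thus also moved towards lower. Of the 11 calls of this list 4 were kept in the same direction with the correction. The tensin genes TNS4 and TNS2, whose products bind integrin tails, rose by 0.91 ± 0.11 and 1.07 ± 0.15 (adjusted p = 0.000122 and 0.000220). The kindlin gene FERMT1, which encodes an integrin activator of epithelia, fell by 0.75 on the log2 scale (SE 0.14, adjusted p = 0.00162), to 8.73, 6.78 and 6.77 FPKM in GCA libraries, against 10.2, 14.1 and 14.8 FPKM in CON libraries.

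Of 13 tested non-integrin matrix receptors and their partners 8 rose and 1 fell (median log2 0.54), a share of 69.2% beside the same 36.4%. The correction gave 7 higher and 3 lower (median 0.30), where 12.1% of all tested genes were higher and 17.1% lower. It kept 8 of the 9 calls in the same direction. The tetraspanin gene CD82, known to restrain integrin signalling, rose by 1.43 ± 0.14 (adjusted p = 1.53e-05), and BCAM, a receptor for LAMA5 laminins, by 1.22 ± 0.14 (adjusted p = 7.24e-05). Of 20 tested genes for other matrix glycoproteins 10 rose and 1 fell (median log2 0.44). That share of 55.0% stands beside 36.4% of all tested genes. The correction gave 7 higher and 1 lower (median 0.24), beside the same corrected shares of all tested genes, with 5 of the 11 calls kept. The lowest p-values were those of TNXB, a tenascin gene whose reads can be shared with a pseudogene (1.30 ± 0.19, adjusted p = 0.000283), and LTBP3, a binder of latent TGF-beta (0.53 ± 0.12, adjusted p = 0.00509; 0.03 with the correction).

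Of 25 tested genes of collagen processing and crosslinking 9 rose and 2 fell (median log2 0.23), a share of 44.0% beside 36.4% of all tested genes. With the correction 7 stood higher and 3 lower, and the median was 0.01, where 12.1% of all tested genes were higher and 17.1% lower. Of the 11 calls 8 were kept in the same direction. LOXL2, a lysyl oxidase that crosslinks collagen, had 26.0, 25.4 and 27.5 FPKM in GCA libraries, against 7.23, 10.4 and 9.17 FPKM in CON libraries. It rose by 1.61 ± 0.13 (adjusted p = 2.89e-06; 1.31 with the correction). BMP1, which trims procollagen and laminin chains, rose by 0.90 ± 0.12 (adjusted p = 0.000147), while the collagen chaperone gene SERPINH1 fell by 0.49 (log2, adjusted p = 0.0156). Of 20 tested genes for other matrix proteases and their controls 8 rose and 2 fell (median log2 0.45), a share of 50% beside 36.4% of all tested genes. With the correction 5 stood higher and 1 lower (median 0.07), beside the same corrected shares of all tested genes. Of the 10 calls 6 were kept in the same direction. PLAU, which encodes the urokinase that turns plasminogen into plasmin, had 73.1, 83.2 and 90.8 FPKM in GCA libraries, against 17.1, 28.3 and 33.1 FPKM in CON libraries. PLAU rose by 1.72 ± 0.18 (adjusted p = 3.02e-05; 1.54 with the correction), and the cysteine protease gene CTSB by 1.13 ± 0.13 (adjusted p = 6.17e-05).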

How the data were processed

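The authors deposited raw counts per gene symbol and FPKM values (fragments scaled to gene length and library total) for 16229 genes in 6 libraries. Tools listed in the submitters' processing notes, with no roles, were HTSeq 0.11.2, fastp 0.20.1 and HISAT2 2.2.1.0, and the build was hg38; annotation and strand setting were not given. Each FPKM value equals count over library total and 1 gene length (relative tolerance 1e-09, 16229 genes), so it adds no measurement. Counts were tested with edgeR 4.0.16 in R 4.3.3: TMM, filterByExpr (minimum count 10, minimum total 15), quasi-likelihood F test, Benjamini-Hochberg adjustment over 12604 genes at 0.05. The standard error is the log2 fold change over the square root of F. CPM uses TMM-scaled library sizes, and overlap of groups was judged on it. The fit was tested on simulated data. The correction took splines (5 degrees of freedom each) of log2 CPM deviations on GC content (GENCODE 29 transcripts, 99.2% of genes) and length as offsets. Alternatives were other normalizations, filters, DESeq2 1.42.0, limma 3.58.1 on log2 FPKM plus 1 or 0.1, the replicate block and left-out libraries. Coordinates and promoters are RefSeq's, GRCh38.p14.

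Within-group deviations of GCA and CON libraries that share a number correlated across genes at 0.20, 0.14 and 0.10 (0.103 before rounding), each over 0.1. Between differently numbered libraries the values ran from -0.17 to 0.09. Deviations were centred within each group, so positive values for some pairs go with negative ones for others. The numbers were therefore taken as a possible pairing only. The reported fit and its p-values do not use it, and it enters only as the replicate block. A count of 3 corresponds to 0.146 to 0.166 CPM, and such floors cover counting error only. Members named in the text are those past the threshold, the 2 with the highest FPKM of each family and partner chains, with other members given to account for the families; of each related list, the 2 past the threshold with the lowest p, with FERMT1, FURIN, SERPINH1, VIM, CDH2 and SMOC1 added after their values were seen. A few of these genes are not reported here. The members and lists were chosen with earlier results of these data known.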

Additional observations from a re-analysis of the deposited data

How the results depend on the processing

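The reported fit gave 20 members higher and 3 lower in GCA, and 4584 genes past the threshold in all. The GC and length correction gave 8 higher and 4 lower, and with the replicate block added to it 10 higher and 5 lower. The block alone gave 21 higher and 4 lower (5163 genes in all); it changed the call of ITGA2 and COL27A1 and of no other member. Without the filter 6 members were lower, the added ones being COL4A1, COL4A2 and COL14A1. Without replicate 1 of both groups 19 were higher and 7 lower (7419 genes in all), with COL5A2, ITGB1 and LAMB3 among those added. Leaving out 1 library gave 12 to 19 higher, 1 to 5 lower and 2621 to 6707 genes in all, lowest without GCA 3 except for the lower members, lowest without CON 2. The other normalizations, the stricter filter, DESeq2 and limma on log2 FPKM gave 15 to 21 higher and 3 lower. MMP15 turned to -0.14 with the correction, with and without the block, and no other called member changed sign. The cause of these shifts was not tested. No scaling moved the median of all genes by over 0.1 on the log2 scale. Depth limits the 35 members below the filter, all under 1 FPKM in both group means.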

Other observations

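Outside the comparisons, reads of several matrix genes below the filter were highest in CON 2. MMP16 had 0, 2 and 0 reads in GCA libraries, against 4, 15 and 0 reads in CON libraries, MMP2 had 3, 4 and 1 in GCA libraries, against 3, 11 and 1 in CON libraries, and the matrix gene SMOC1 had 0, 2 and 2 in GCA libraries, against 7, 25 and 0 in CON libraries. The same order, CON 2 above CON 1 above CON 3, held for COL4A1 and COL4A2. Among genes picked after their values were seen, it held for VIM and CDH2. The mesenchymal filament gene VIM had 89, 47 and 66 reads in GCA libraries, against 147, 439 and 37 reads in CON libraries. VIM passed the test (edgeR adjusted p = 0.0395), but CON 3 lay below every GCA library and CON 2 held most CON reads, so no fold is given. CDH2 had 4, 8 and 3 reads in GCA libraries, against 15, 30 and 1 reads in CON libraries. The summed fibroblast markers did not keep this order, with 9.41 CPM in CON 1, 12.04 CPM in CON 2 and 11.96 CPM in CON 3.

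The ratio of COL6A1 to COL6A2 was 1.23, 1.34 and 1.27 in GCA libraries, against 1.07, 1.04 and 0.982 in CON libraries, and that of MMP11 to MMP14 was 1.90, 2.18 and 2.07 in GCA libraries, against 1.34, 0.868 and 1.08 in CON libraries. ITGA3 held 83.2 ± 0.416% of the summed FPKM of integrin alpha chains in GCA libraries and 75.6 ± 4.76% in CON libraries, and ITGB4 62.1 ± 5.25% of that of beta chains in GCA libraries and 47.6 ± 1.47% in CON libraries (SD, n = 3 each). These ratios were formed after the values were seen and were not tested.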
